A study of Homo sapiens with 2 samples.

Results

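Immediate early genes are transcribed within minutes of a growth factor, serum or stress signal, without the need for new protein. Kinases of the ERK and p38 routes phosphorylate factors already bound at their promoters, such as serum response factor with its ETS-family partners and CREB, and the transcripts are soon destroyed, in many cases through AU-rich elements in the 3' untranslated region (UTR). Several of their products then shut the signal off again. In MDA-MB-231, a triple-negative breast cancer line, the ERK route is known to be active without added growth factor.

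The 9 genes described were picked by symbol from the 20323 genes of the deposited table: the transcription factors EGR1, EGR3, NR4A1 and MYC, the nuclear and signalling proteins IER2, IER3 and IER5, and the negative regulators DUSP1 and ZFP36. Each symbol matched 1 row. The si-HnRNPF library was made from MDA-MB-231 cells with HnRNPF knocked down by small interfering RNA (siRNA), and the si-NC library from the same line given a negative-control siRNA; RNA was selected by its poly(A) tail, and the labels name no stimulation. HNRNPF encodes an RNA-binding protein of G-rich sequences that acts in splicing and polyadenylation. With 1 library per group no p-value was computed, and every difference compares these 2 libraries and not the conditions. The 95% intervals hold only the error of counting. Fewer cells of a kind and less RNA per cell cannot be told apart in such bulk RNA.

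The si-HnRNPF library held 20134572 estimated counts and the si-NC library 20654622. HNRNPF itself had 2451 counts in the si-HnRNPF library and 6373 in the si-NC library, 38.8% of the control level. All 8 markers of the line that were examined, VIM, CD44, EGFR and AXL among them, were expressed, at 9.27 to 1690 FPKM (fragments scaled to transcript length and library size) in the si-HnRNPF library and 7.03 to 1723 FPKM in the si-NC library. PGR was at 0 counts in both, CDH1 had 0 counts in the si-HnRNPF library and 3 in the si-NC library, and ESR1 had 8 in the si-HnRNPF library and 3 in the si-NC library. The other luminal or epithelial markers were expressed: ERBB2 had 1236 counts in the si-HnRNPF library and 1160 in the si-NC library, GATA3 had 89 in the si-HnRNPF library and 99 in the si-NC library, and EPCAM had 47 in the si-HnRNPF library and 34 in the si-NC library. Markers of other cell types were mostly scarce. In the si-HnRNPF library 4 haematopoietic markers summed to 6 counts, 3 endothelial markers to 73 and 4 fibroblast markers to 128. The same lists summed to 0, 101 and 116 counts in the si-NC library. PECAM1 made up most of the endothelial counts, with 70 in the si-HnRNPF library and 97 in the si-NC library. COL1A1 made up most of the fibroblast counts, with 118 in the si-HnRNPF library and 109 in the si-NC library. Both were expressed. The part of other cell types in the results was not tested.

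Of the 9 early genes, EGR1, IER2 and DUSP1 were higher in the si-HnRNPF library by 1.44-fold to 1.605-fold, and MYC was higher by 1.23-fold. IER3 and ZFP36 lay within counting error of the control level, and IER5 was lower. NR4A1 and EGR3 were too scarce to compare. A gene counted as expressed if it reached 1 CPM (count per 1000000 counts) and 20 counts in the higher library, which 12218 genes did, and 7 of these 9. The median log2 ratio of the 7 was 0.30, against 0.00 over all expressed genes, and 6 of the 7 were above 0, against 50.1% of all expressed genes. With a fold of 1.5, 1 of the 7 was higher, EGR1, and none was lower, where 3.4% of all expressed genes lay that far above control and 2.68% that far below. With a fold of 1.2, 4 of the 7 were higher and none lower, against 14.8% and 12.6% of all expressed genes. The counting interval lay above a ratio of 1 for the same 4 genes, EGR1, IER2, DUSP1 and MYC, and below it for IER5; over all expressed genes these shares were 21.5% above and 24.5% below.

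**Figure D1:**
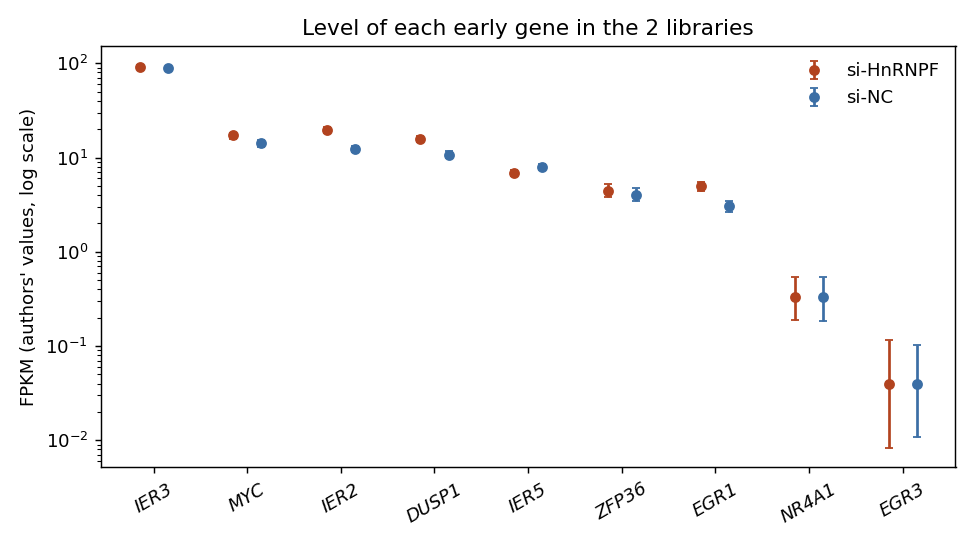
Level of each of the 9 genes in FPKM on a log scale, si-HnRNPF left of si-NC, ordered by the si-NC level. Points are single libraries and bars the exact Poisson 95% interval of the count carried to FPKM; EGR1, IER2 and DUSP1 sit higher in the si-HnRNPF library, IER5 lower, and NR4A1 and EGR3 lie below 1 FPKM in both.

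EGR1 stood furthest from control. It encodes a zinc-finger transcription factor of GC-rich sites and is among the most used markers of a recent growth signal. The gene (ENSG00000120738, GRCh38 chromosome 5, 138465490 to 138469315, plus strand, 2 exons) had 315 counts, 15.5 CPM, in the si-HnRNPF library and 197 counts, 9.62 CPM, in the si-NC library. The log2 ratio was 0.68 (95% interval 0.43 to 0.95), the 287th highest of 12218 expressed genes. A ratio that high or higher was held by 2.35% of them, and EGR1 lay above the 95th percentile of 0.49. As a single ratio per gene is all that 2 libraries give, many genes were alike. A log2 ratio within 0.05 of that of EGR1 was held by 103 expressed genes, EGR1 itself included. ZCCHC3, PRKAR1B and AZIN2 were the nearest at 5 CPM and 50 counts, each within 0.001.

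IER2 and DUSP1 followed closely. IER2, a small nuclear protein induced by many growth factors (ENSG00000160888, chromosome 19, 13150415 to 13154908, plus strand), had 876 counts in the si-HnRNPF library and 604 in the si-NC library. Its log2 ratio was 0.55 (95% interval 0.40 to 0.70), or 1.46-fold. In FPKM it stood at 19.7 in the si-HnRNPF library and 12.4 in the si-NC library, and with 0.1 added to the authors' FPKM its log2 ratio of 0.67 passed 1.5-fold. DUSP1, the phosphatase that switches off p38, JNK and ERK kinases (ENSG00000120129, chromosome 5, 172768090 to 172771195, minus strand, 4 exons), had 640 counts in the si-HnRNPF library and 448 in the si-NC library. Its log2 ratio was 0.52 (95% interval 0.35 to 0.70). These were the 497th and 539th highest ratios, IER2 before DUSP1, and the intervals of EGR1, IER2 and DUSP1 overlapped, so their order is not resolved. Annotated antisense transcripts overlap DUSP1 over its whole 3106 bases, IER2 over 1123 bases and IER3 over 394 bases. These antisense transcripts were not analysed here. The sources used here do not give the strand setting of the counting, so reads from either strand cannot be told apart at these genes.

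The promoter windows of EGR1, IER2 and DUSP1, the 3 genes furthest above control, and of IER5, the one below it, are shown to set side by side the elements that such genes are known for. Each runs from 250 bases before to 50 bases after a RefSeq start (GRCh38.p14), and capitals mark the motifs searched: the CArG box of serum response factor, TGACG on either strand (the core of the cyclic AMP response element TGACGTCA, which holds it in each direction), CCGGAA on either strand (an ETS core) and TATAA on the gene's strand.
EGR1, chr5:138465229-138465528, plus strand: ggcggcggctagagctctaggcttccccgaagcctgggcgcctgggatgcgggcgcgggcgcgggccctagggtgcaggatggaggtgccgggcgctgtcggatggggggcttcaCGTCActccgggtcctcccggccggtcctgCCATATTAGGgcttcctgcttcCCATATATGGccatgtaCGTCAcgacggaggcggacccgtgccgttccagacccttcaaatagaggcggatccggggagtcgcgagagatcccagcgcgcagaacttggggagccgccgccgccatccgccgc
IER2, chr19:13150161-13150460, plus strand: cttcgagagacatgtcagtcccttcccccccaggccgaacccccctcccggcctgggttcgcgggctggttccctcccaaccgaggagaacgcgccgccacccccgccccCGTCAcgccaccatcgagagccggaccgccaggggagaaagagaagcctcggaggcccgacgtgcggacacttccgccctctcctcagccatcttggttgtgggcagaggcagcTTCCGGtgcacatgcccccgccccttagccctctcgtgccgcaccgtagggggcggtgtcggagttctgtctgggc
DUSP1, chr5:172771146-172771445, minus strand: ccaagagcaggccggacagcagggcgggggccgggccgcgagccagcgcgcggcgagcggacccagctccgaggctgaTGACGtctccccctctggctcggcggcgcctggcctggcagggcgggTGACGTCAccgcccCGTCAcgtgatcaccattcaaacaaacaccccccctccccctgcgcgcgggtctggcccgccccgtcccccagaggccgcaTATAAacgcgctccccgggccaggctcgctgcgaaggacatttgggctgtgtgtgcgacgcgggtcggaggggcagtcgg
IER5, chr1:181088450-181088749, plus strand: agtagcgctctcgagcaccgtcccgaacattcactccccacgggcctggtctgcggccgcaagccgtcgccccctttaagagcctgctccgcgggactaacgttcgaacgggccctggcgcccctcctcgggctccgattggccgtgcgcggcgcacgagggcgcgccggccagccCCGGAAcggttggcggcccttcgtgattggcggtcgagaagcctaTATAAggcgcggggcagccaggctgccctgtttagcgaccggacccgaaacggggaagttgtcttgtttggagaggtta

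In these windows EGR1 held 2 CArG boxes, which start 105 and 83 bases before the RefSeq start, and TGACG at 135 and 66 bases before it. DUSP1 held no CArG box but the full element TGACGTCA, 125 bases before the start, with further TGACG copies at 172 and 111 bases, and TATAA at 30 bases. IER2 held TGACG at 140 bases and CCGGAA at 26 bases before the start, and IER5 held CCGGAA at 74 bases and TATAA at 29 bases. A window was found for 6 of the 9 genes, those 4 with ZFP36 and NR4A1, and EGR1 alone of the 6 had a CArG box, where 1.29% of all 35116 windows did. TGACG was found for EGR1, IER2 and DUSP1, but it is common, in 24.6% of windows; TGACGTCA stood in 1.85%, TATAA in 14.8% and CCGGAA in 17.2%. Among the 9850 expressed genes with a window the shares were 1.54% for the CArG box, 40.9% for TGACG, 3.84% for TGACGTCA, 10.9% for TATAA and 35.8% for CCGGAA. Over all expressed genes, carriers of these elements were centred near 0: the 152 expressed genes with a CArG box in a window had a median log2 ratio of 0.02, and 77 of them were above 0, and the 378 with TGACGTCA had a median of 0.03. A match is a run of letters and shows no binding.

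**Figure D2:**
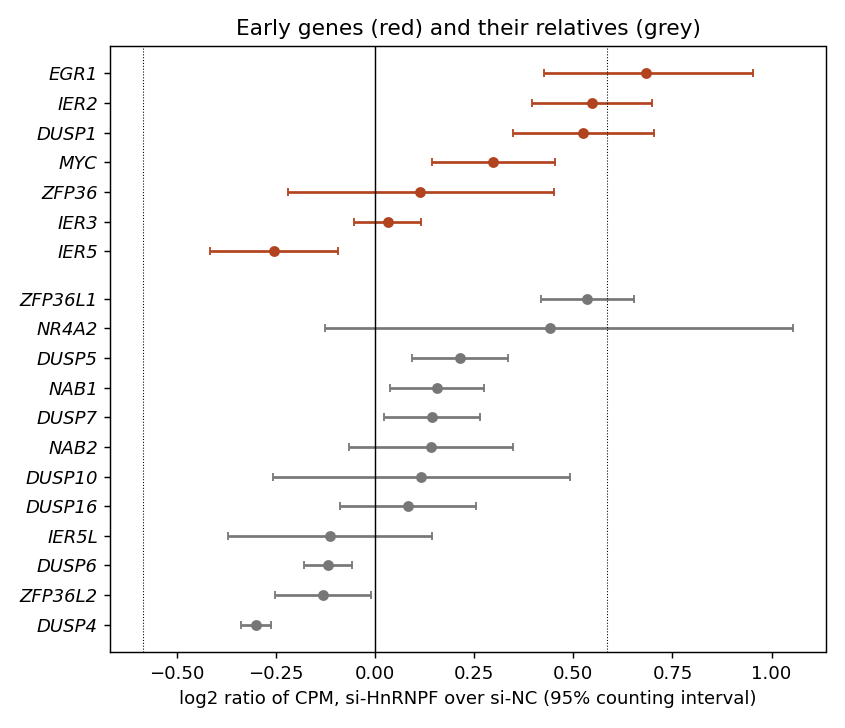
Log2 ratio of CPM, si-HnRNPF over si-NC, of the 7 expressed early genes (red) and 12 expressed relatives (grey), each with its exact 95% counting interval; dotted lines mark 1.5-fold. EGR1, IER2, DUSP1 and MYC have intervals above 0 and IER5 below 0, and among the relatives ZFP36L1 is highest and DUSP4 lowest.

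MYC, the growth-promoting transcription factor whose transcript is also induced early (ENSG00000136997, chromosome 8, 127735434 to 127741434, plus strand), had 757 counts, 37.3 CPM, in the si-HnRNPF library and 620 counts, 30.3 CPM, in the si-NC library. The log2 ratio was 0.30 (95% interval 0.14 to 0.46), and 12.4% of expressed genes were at that ratio or above. The authors' deposited table carries 3 values in a column without a name, and in the row of MYC that value, 1.209, equals the authors' FPKM of 17.15 in the si-HnRNPF library divided by 14.18 in the si-NC library. The family relatives of MYC were scarce: MYCN had 0 counts in both libraries and MYCL had 14 counts in the si-HnRNPF library and 19 in the si-NC library.

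The other EGR and NR4A genes were near or at the floor of detection. EGR3, a close relative of EGR1 (ENSG00000179388, chromosome 8, 22687659 to 22693302, minus strand), had 3 counts in the si-HnRNPF library and 4 in the si-NC library, and the interval of its log2 ratio ran from -3.17 to 2.16. EGR2 had the same counts, 3 in the si-HnRNPF library and 4 in the si-NC library, and EGR4 had 0 in both. EGR1 was thus the one member of its family above the minimum level. NR4A1, an orphan nuclear receptor (ENSG00000123358, chromosome 12, 52022832 to 52059507, plus strand), had 16 counts in the si-HnRNPF library and 15 in the si-NC library, with a log2 ratio of 0.092 (95% interval -1.01 to 1.22). Its relative NR4A2 had 60 counts in the si-HnRNPF library and 44 in the si-NC library (log2 ratio 0.44, 95% interval -0.13 to 1.05), and NR4A3 had 10 in the si-HnRNPF library and 8 in the si-NC library. A difference of the size seen for EGR1 was not detectable at this depth for EGR3 or NR4A1.

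IER3 and IER5 did not go with IER2. IER3, a regulator of cell survival and ERK signalling (ENSG00000137331, chromosome 6, 30743199 to 30744554, minus strand), was the most abundant of the 9 per length, with 2304 counts in the si-HnRNPF library and 2271 in the si-NC library. Its log2 ratio was 0.032 (95% interval -0.052 to 0.12), and the interval of its ratio ended at 1.084-fold. IER5, which promotes activity of the heat shock factor HSF1 (ENSG00000162783, chromosome 1, 181088712 to 181092899, plus strand, 1 exon), had 579 counts in the si-HnRNPF library and 696 in the si-NC library. The log2 ratio was -0.25 (95% interval -0.42 to -0.093), and IER5 was the one expressed gene of the 9 below control. Its paralog IER5L had 244 counts in the si-HnRNPF library and 266 in the si-NC library (log2 ratio -0.11, 95% interval -0.37 to 0.14). ZFP36, also called tristetraprolin, which binds AU-rich elements and recruits the deadenylase that removes the poly(A) tail (ENSG00000128016, chromosome 19, 39406813 to 39409412, plus strand), had 157 counts in the si-HnRNPF library and 146 in the si-NC library. Its log2 ratio was 0.11, with an interval of -0.22 to 0.45.

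Compared per length within each library, the order of levels differed for 2 pairs of neighbours. In the si-HnRNPF library IER3 led with 91.9 FPKM, ahead of IER2 at 19.7, MYC at 17.2, DUSP1 at 15.8, IER5 at 6.85, EGR1 at 4.99 and ZFP36 at 4.46 FPKM. In the si-NC library IER3 led with 88.5 FPKM, ahead of MYC at 14.2, IER2 at 12.4, DUSP1 at 10.8, IER5 at 8.02, ZFP36 at 4.05 and EGR1 at 3.04 FPKM. NR4A1, at 0.33 FPKM, and EGR3, at 0.04 FPKM, were last in both. Neighbours were often not separated by counting error: the intervals of IER2 and MYC met at 18.4 FPKM in the si-HnRNPF library, MYC and DUSP1, and EGR1 and ZFP36, had overlapping intervals there, and so did MYC and IER2, IER2 and DUSP1, and ZFP36 and EGR1 in the si-NC library. By counts per kilobase of the annotated transcript MYC stood ahead of DUSP1 and DUSP1 ahead of IER2 in both libraries, so the exchange of IER2 and MYC rests on the transcript length used, and that of EGR1 and ZFP36 alone was seen on both scales.

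**Figure D3:**
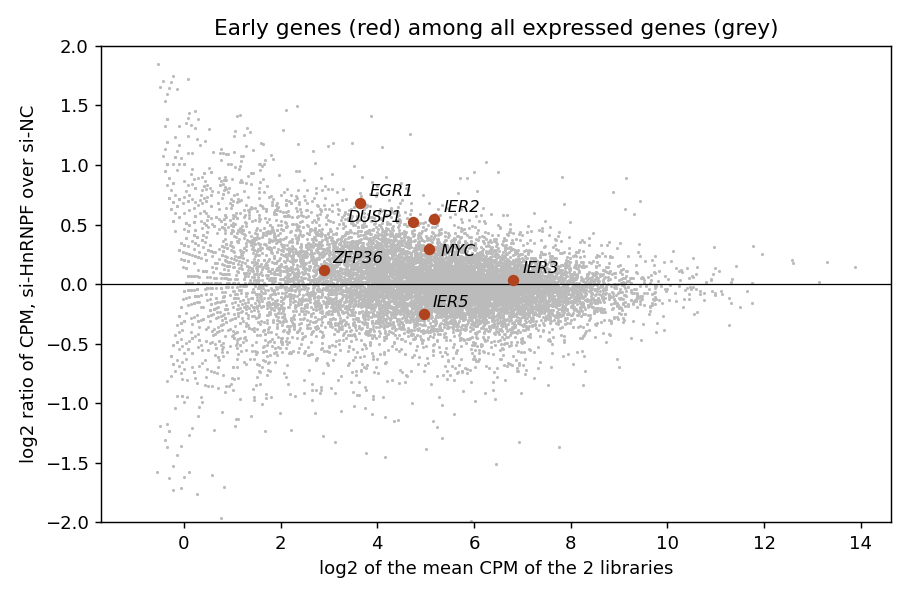
Log2 ratio of CPM, si-HnRNPF over si-NC, against the log2 of the mean CPM for 12218 expressed genes (grey; 32 lie outside the plotted range) with the 7 expressed early genes in red. EGR1, at 0.68, is the highest of the 7, IER2 and DUSP1 follow in the upper part of the cloud, and IER5, at -0.25, is the one below 0.

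Most of the 9 genes are short. In GENCODE release 29, 6 of them span under 5 kb, a bound chosen after their spans were seen, and IER3, the shortest, spans 1356 bases, where the median expressed gene spans 34700 bases. NR4A1, with 8 exons over 36676 bases, is longer than that median. All 9 transcripts had a GC content above the median of 48.2% over expressed genes, up to 61.7% in IER2. These features moved with the ratio across the transcriptome: the 864 expressed genes under 5 kb had a median log2 ratio of 0.12, with 616 above 0, against -0.011 for longer genes, and across genes, which are not independent replicates, the log2 ratio had a Spearman's rho of 0.27 with transcript GC content and of -0.11 with transcript length. A fitted trend on transcript GC content and transcript length was then taken out. Gene span was not part of this fit. EGR1 was then at 0.65, DUSP1 at 0.47, IER2 at 0.46, MYC at 0.26 and IER5 at -0.24, so these kept their side of 0. ZFP36 was at 0.035 and IER3 changed sign, to -0.089. GGGG, a run of the kind that the hnRNP F protein is known to bind, occurred at 13.3 per kb of transcript in IER2 and 11.2 in ZFP36. It occurred at 6.21 per kb in IER5 and 2.54 in MYC. The median over expressed genes was 4.09, and 8 of the 9 were above that median. Whether this exceeds what transcripts of like GC content hold was not tested.

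The 9 genes differed widely in the AU-rich letters of the 3' UTR. The pentamer ATTTA, the core of the element that ZFP36 reads, was present at 8.40 per kb of 3' UTR in MYC, 8.14 in IER3, 7.01 in ZFP36 and 5.95 in DUSP1, against a median of 1.76 over expressed genes. EGR1 held 0.81 per kb and IER2 none, so of the 3 genes furthest above control DUSP1 alone exceeded that median. IER5, the one below control, held 10 copies in 3013 bases, 3.32 per kb. The longer nonamer TTATTTATT was present in 3 of the 9 genes, and in 9.54% of expressed genes with a 3' UTR. The sites are shown, on the strand of the transcript with the nonamer in capitals, because DUSP1 and IER5, which hold it in several copies, differed in opposite directions; the 3 copies in IER5 overlap within a single run, whose first copy is given.
DUSP1, base 101 of a 3' UTR of 672: gggctggtccTTATTTATTtaacttcacc
DUSP1, base 369 of 672: agaatataccTTATTTATTtttgtgtagg
ZFP36, base 507 of 713: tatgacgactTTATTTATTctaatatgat
IER5, base 2567 of 3013: gtgtcttcctTTATTTATTtatttattta

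Over all expressed genes with a 3' UTR, the 8742 with ATTTA had a median log2 ratio of -0.023, with 4000 above 0, against 0.055 for those without it. The 5576 with 3 copies or more had a median of -0.041, against 0.033 for the rest. For the nonamer the 1133 carriers had a median of -0.028, against 0.002 for those without it. The heptamer GGAAGAA was picked out in these same libraries as frequent in the 3' UTRs of lower genes, so it is given as a description. It was present in 21.5% of expressed genes with a 3' UTR, in none of the 7 expressed early genes, and in NR4A1 in 2 copies.

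The wider set of early genes was not higher as a whole. The list of 26 other early transcription factors had 22 expressed members, of which 8 were higher and 14 lower, with a median log2 ratio of -0.039. Of the 22, 2 exceeded control by 1.5-fold, CEBPD and FOS, and BHLHE40 alone was below it by that much. Over all expressed genes 3.4% lay that far above control and 2.68% that far below. CEBPD was scarce, with 57 counts in the si-HnRNPF library and 28 in the si-NC library. At 5 CPM and 50 counts the largest differences were those of BHLHE40, a clock and hypoxia repressor (-0.75), KLF10, a TGF-beta-induced repressor (-0.50), the Notch target HES1 (-0.45) and ID1, an inhibitor of basic helix-loop-helix factors (-0.28), all lower. FOS, the classic companion of EGR1, had 46 counts in the si-HnRNPF library and 29 in the si-NC library, and the interval of its log2 ratio of 0.64 ran from -0.025 to 1.40. JUN had 2945 counts in the si-HnRNPF library and 3052 in the si-NC library. Among 29 early genes for signalling, stress and secreted proteins, 13 of 26 expressed members were higher and 13 lower (median -0.014). PLK2, a polo-like kinase (1.02), and the matricellular genes CCN1 (0.59) and CCN2 (0.53) were higher, and HBEGF, a ligand of the EGF receptor (-0.51), was lower. CCN1 had 15511 counts in the si-HnRNPF library and 10375 in the si-NC library.

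Among relatives of the 9 genes, 8 of 12 expressed members were higher and 4 lower, with a median of 0.13 and none past 1.5-fold. ZFP36L1, a paralog of ZFP36 with the same kind of RNA-binding domain, was highest, with 1432 counts in the si-HnRNPF library and 995 in the si-NC library (log2 ratio 0.53, 95% interval 0.42 to 0.65), while ZFP36L2 had a log2 ratio of -0.13 (95% interval -0.25 to -0.011). The EGR co-repressors had log2 ratios of 0.16 for NAB1 (95% interval 0.039 to 0.28) and 0.14 for NAB2 (95% interval -0.065 to 0.35). The dual-specificity phosphatases did not move as a family. DUSP5, a nuclear phosphatase of ERK, had a log2 ratio of 0.21, and DUSP7 one of 0.14. DUSP10, at 0.12 (95% interval -0.26 to 0.49), and DUSP16, at 0.083 (95% interval -0.088 to 0.255), lay within counting error of control. DUSP4, at -0.30, and DUSP6, at -0.12, which also act on ERK, were lower. DUSP4, far more abundant than DUSP1, had 10034 counts in the si-HnRNPF library and 12448 in the si-NC library.

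The transcripts of kinases and factors upstream of early genes were centred near 0. Of 28 expressed genes of the ERK route 11 were higher and 17 lower (median -0.044), with none past 1.5-fold. The counting interval lay above a ratio of 1 for 6 of the 28 and below it for 11. Over all expressed genes these shares were 21.5% and 24.5%. RPS6KA3, the ERK-activated kinase RSK2 (-0.52), and the ETS factor ELK3 (-0.28) were lower, and ELK4, an ETS partner of serum response factor (0.41), was higher. SRF itself had 1304 counts in the si-HnRNPF library and 1346 in the si-NC library. Of 20 genes used as readouts of ERK signalling 14 were below control and 6 above, where 50.1% of all expressed genes were above 0, with a median of -0.18 and none past 1.5-fold. The cytokine IL11 (-0.57), the ERK feedback inhibitor SPRY4 (-0.45) and the ETS factor ETV1 (-0.35) were lower, and SPRY2, another feedback inhibitor, was higher (0.46). This list holds DUSP4, DUSP5, DUSP6 and DUSP7, which are also among the relatives.

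**Figure D4:**
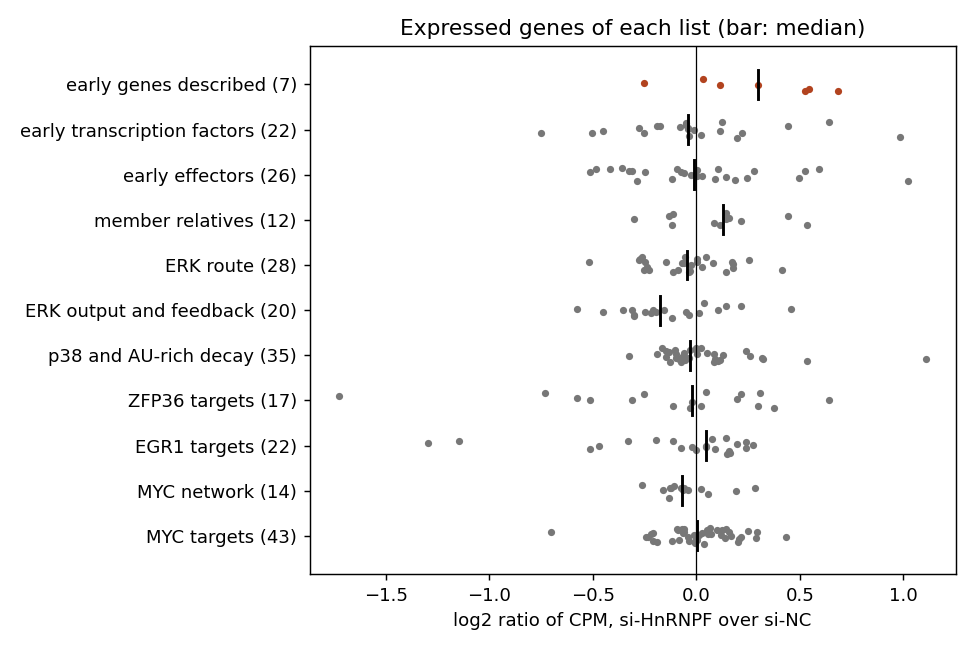
Log2 ratio of CPM, si-HnRNPF over si-NC, of the expressed genes of each list, with the number of genes in brackets and the median as a bar; the early genes described are in red, and some genes stand in more than 1 list. The 7 early genes have a median of 0.30, and the other lists have medians between -0.18 and 0.13.

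Lists of targets or readouts of ZFP36, EGR1 and MYC were centred near 0. So were the lists of p38 kinases with AU-rich decay factors and of partners and regulators of MYC. For ZFP36, reported targets of its decay had 8 of 17 expressed members higher and 9 lower (median -0.019), with BIRC3, an inhibitor of apoptosis (-0.73), IL11 (-0.57) and PLAUR, the urokinase receptor (-0.52), lower and the Hippo kinase LATS2 (0.37) higher. The p38 kinases, AU-rich element binding proteins and deadenylation factors had 15 of 35 higher and 20 lower (median -0.033); ZFP36L1, MAPK12, a p38 kinase (0.32), and DCP2, the decapping enzyme (0.32), were higher, and CNOT6, a deadenylase subunit (-0.32), was lower. Of 22 expressed reported targets of EGR1, 5 had a counting interval above a ratio of 1 and 5 below it. Over all expressed genes these shares were 21.5% and 24.5%. Of the 22 targets, 12 were higher and 10 lower (median 0.048). Those named by size were lower: CDKN1A, the cell-cycle inhibitor p21, had 257 counts in the si-HnRNPF library and 576 in the si-NC library (log2 ratio -1.15, 95% interval -1.37 to -0.94), and HBEGF (-0.51) and PDGFA, a growth factor chain (-0.33), followed. Of 43 genes that serve as readouts of MYC, 22 were higher and 21 lower (median 0.003), with the chaperonin HSPE1 (0.43), whose counts are not whole, the ribosome biogenesis gene RRS1 (0.29) and the spermidine synthase SRM (0.29) higher and DDX18, an RNA helicase of the nucleolus, lower (-0.70). Partners and regulators of MYC had 4 of 14 higher and 10 lower (median -0.069). MNT, an antagonist of MYC (0.28), and MLXIP (0.19) were higher, and AURKA, which stabilises MYC proteins (-0.26), was lower. ZBTB17, which MYC binds to repress genes, lay within counting error of control, at -0.16 (95% interval -0.38 to 0.053).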

How the data were processed

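The deposited table holds 20323 genes. Its estimated counts (expected counts, not whole in 12.0% of genes in the si-HnRNPF library and 11.6% in the si-NC library) carry no scaling between the deposited libraries, per the file headers. FPKM values, a log2 fold change and, in a column without a name, a linear ratio for 3 genes are the authors' own; their log2 values follow from the 2 FPKM columns, once 0 is replaced by 0.001, to within 3.1e-09. RSEM, HISAT2, StringTie 1.3.1 and fastp 0.18.0 are listed in the submitters' processing notes, beside the build GRCh38; their roles and the annotation release are not given. Another 2 columns of per-library values were not used. The second library is named si848 in the table and was taken as the si-HnRNPF library because the table's name sets the negative control against that siRNA.

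Estimated counts were rounded. Effective library sizes by the trimmed mean of M values (edgeR 4.0.16, R 4.3.3) were 20314875 for si-HnRNPF and 20471293 for si-NC, and log2 ratios of CPM used a prior count of 2. Intervals of ratios are exact 95% Clopper-Pearson intervals (scipy 1.17.1), which treat each read as a separate molecule although no molecular identifiers are named. Members and lists were chosen with earlier results of these data known. The rule named all 9 genes, HNRNPF, the 4 genes of each list with the largest absolute log2 ratio at 5 CPM and 50 counts, family relatives and the 3 genes nearest EGR1; 2 of the list genes it names are not reported here, though list counts include them. FOS, CEBPD, JUN, SRF, NAB2 and the markers fall outside it and were chosen after their values were seen. Where rows shared a symbol, the row that owns it in the reference name table kept it. Structures came from GENCODE release 29 (GRCh38), for each gene from the CCDS transcript with the longest 3' UTR, and promoter windows from RefSeq (GRCh38.p14). The ratio and its interval were tried on simulated libraries that held counting error only. Such libraries cannot show how samples of a condition vary. Alternatives were other scalings, DESeq2 1.42.0 size factors among them, prior counts, minimum levels, FPKM, folds and a fitted trend.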

Additional observations from a re-analysis of the deposited data

How the results depend on the processing

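No paired analysis was possible because each group holds 1 library, and for the same reason no library could be left out. The 6 settings that change a gene's own ratio (library totals, DESeq2 size factors, prior counts of 0.5 and 5, the authors' FPKM with 0.1 added, and a fitted trend on GC content and length taken out) gave 42 values for the 7 expressed genes, of which 41 stayed inside the counting interval; the other was IER3 with the trend removed, at -0.089. EGR1 ranged from 0.65 to 0.71, IER2 from 0.46 to 0.67, DUSP1 from 0.47 to 0.55, MYC from 0.26 to 0.32 and IER5 from -0.27 to -0.22. The number of genes at least 1.5-fold higher, 1, became 2 with the authors' FPKM, where IER2 passed as well, 4 at 1.2-fold and 0 at 2-fold; none was lower at any of these. With no minimum level the median fell to 0.11, since NR4A1 and EGR3 then entered. Library totals moved the median of all expressed genes to 0.027. Leaving out genes whose counts may be split removed none of the 7. Depth limits NR4A1 and EGR3, whose intervals span 0 widely.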

Other observations

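IER2 was the expressed gene of the 9 whose FPKM and counts diverged most on the log2 scale. Its counts per unit of FPKM, which follow the transcript length that the authors' quantification assigned, were 44.4 in the si-HnRNPF library and 48.8 in the si-NC library. Scaled by library totals, the log2 ratio of the implied lengths, si-HnRNPF over si-NC, was -0.098. Of 9581 genes at 3 FPKM and 100 counts or more in both libraries, 9.08% had a shift that low or lower, and 90% lay between -0.15 and 0.14. For EGR1, IER3, IER5, DUSP1 and ZFP36 the shift was between -0.001 and 0.004, and for MYC it was 0.050. The deposited table holds values per gene, and the cause of the shift was not tested.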
